A study of Arabidopsis thaliana with 9 samples.

Results

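The ZAT and AZF genes described here are 10 Arabidopsis thaliana loci that encode small C2H2 zinc finger repressors of stress responses. They were chosen by gene identifier and name: ZAT10 (AT1G27730, also called STZ), ZAT12 (AT5G59820, also called RHL41), ZAT6 (AT5G04340), ZAT7 (AT3G46090), ZAT8 (AT3G46080), ZAT11 (AT2G37430), ZAT18 (AT3G53600), AZF1 (AT5G67450), AZF2 (AT3G19580) and AZF3 (AT5G43170). All 10 were present among the 22155 loci of the count table, and 6 of them carried enough counts to be among the 13975 loci tested. The study compared rosettes of PP2-A5oe, a line that overexpresses PP2-A5, with rosettes of pp2-a5, a mutant line of the same gene, and of Col-0, the wild type. PP2-A5 is a lectin with a TIR domain that the study links to defence against the spider mite Tetranychus urticae. Each genotype had 3 biological replicates, and all 9 libraries came from the control treatment, with no mites named in the labels. The labels give the tissue as rosette, while the extraction protocol names seedlings that were 3 weeks old. The promoter that drives the transgene, the kind of mutation and the number of independent lines are not stated in the labels, so each genotype may be 1 line, and an effect of PP2-A5 cannot be told apart from one of the line. The pp2-a5 libraries carry names that begin with SALK, with no further word on the mutation. The transcript of PP2-A5 itself was not analysed here, so the genotype labels were not checked against it.

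These proteins carry a pair of C2H2 zinc fingers, each with the plant-specific signature QALGGH, through which they bind DNA. Most also carry a short EAR-type repression motif rich in leucine near the carboxyl end, which recruits co-repressors of the TOPLESS family and histone deacetylases. In leaves the best known members are induced within minutes to hours by cold, salt, drought, wounding, intense light or reactive oxygen, and they act as early regulators that dampen or shape the later response.

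All 10 members had a coding region in 1 uninterrupted segment in the TAIR10.1 annotation, and 2 QALGGH signatures each. The first of these signatures in each member is printed so that the family resemblance can be seen, 5′ to 3′ on the coding strand, from the RefSeq TAIR10.1 genome. Capitals mark the 11 of 18 bases that are the same in all 10 members.
ZAT10: CAaGCtcTcGGtGGtCAc
ZAT12: CAaGCctTaGGaGGtCAc
ZAT6: CAgGCtcTtGGtGGaCAc
ZAT7: CAaGCttTgGGaGGtCAt
ZAT8: CAaGCttTgGGaGGtCAt
ZAT11: CAaGCccTtGGtGGcCAc
ZAT18: CAaGCtcTtGGaGGtCAt
AZF1: CAaGCctTaGGtGGaCAc
AZF2: CAgGCttTaGGcGGtCAc
AZF3: CAaGCtcTcGGcGGtCAt
Most of the bases that differ are at the last position of a codon. ZAT7 and ZAT8 had the same 18 bases there, and they were also the closest pair over the coding region, with 88.2% of 516 alignment columns identical. ZAT11 and ZAT18 followed with 71.6%, and ZAT10 and ZAT6 shared 69.2%. A search of the translated coding regions for repression motifs found the letters DLN, at 82.1% to 94.7% of the way along, in ZAT10, ZAT6, ZAT11, ZAT18, AZF1, AZF2 and AZF3. The longer form DLNL was present in ZAT11, ZAT18, AZF1 and AZF2. ZAT12 and ZAT7 had no DLN but held leucines at alternate positions between 85.7% and 94.4% of the way along, and ZAT8 had neither pattern. DLN alone was added to the search after the sequences were seen.

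The 250 bases before the annotated start of ZAT10, ZAT12, ZAT6 and AZF1 are printed because, among the 6 tested members, these had the largest fold changes in PP2-A5oe against Col-0. Their windows lie at chr1:9649324-9649573 on the minus strand for ZAT10, chr5:24102564-24102813 on the plus strand for ZAT12, chr5:1217363-1217612 on the minus strand for ZAT6 and chr5:26920180-26920429 on the minus strand for AZF1. Capitals mark every match, on either strand, to CGCGTT (the rapid stress response element), CACGTG (the G-box), CCGAC (the core of the element bound by CBF factors) or TTGAC (the core of the W-box bound by WRKY factors).
ZAT10: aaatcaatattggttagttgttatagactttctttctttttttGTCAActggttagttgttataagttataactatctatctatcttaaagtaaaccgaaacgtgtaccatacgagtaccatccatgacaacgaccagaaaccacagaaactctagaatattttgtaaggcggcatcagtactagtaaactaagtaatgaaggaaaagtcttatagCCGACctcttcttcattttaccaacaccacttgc
ZAT12: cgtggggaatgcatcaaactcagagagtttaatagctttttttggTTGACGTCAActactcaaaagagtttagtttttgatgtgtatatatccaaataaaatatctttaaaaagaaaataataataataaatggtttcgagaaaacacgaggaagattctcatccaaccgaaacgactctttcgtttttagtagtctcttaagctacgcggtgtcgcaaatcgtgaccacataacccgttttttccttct
ZAT6: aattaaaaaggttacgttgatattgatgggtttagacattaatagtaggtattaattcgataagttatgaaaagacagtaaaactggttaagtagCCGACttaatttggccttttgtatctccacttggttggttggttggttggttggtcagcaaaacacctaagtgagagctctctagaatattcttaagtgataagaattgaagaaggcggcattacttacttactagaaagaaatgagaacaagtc
AZF1: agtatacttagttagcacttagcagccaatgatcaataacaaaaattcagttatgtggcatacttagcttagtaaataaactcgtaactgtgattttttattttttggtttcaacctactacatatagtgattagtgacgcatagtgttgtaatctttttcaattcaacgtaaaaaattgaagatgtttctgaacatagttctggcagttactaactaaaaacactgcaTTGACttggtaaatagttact
CCGAC or its reverse complement was found in 4 of the 10 member promoters, those of ZAT10, ZAT6, ZAT18 and AZF2, against 12% of 27443 promoters of the same length. TTGAC was found in 8 of 10, all except ZAT6 and AZF3, against 44.9% of all promoters. CGCGTT and CACGTG were found in 0 of 10, against 2.59% and 6.49% of all promoters. In ZAT12 the matches to TTGAC on each strand lie directly side by side in the run TTGACGTCAA. In AZF2 the run TTGACCGAC holds both cores, which share a base. A match is a description of these letters and not a binding site.

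Total counts ranged from 5408847 to 6196722 per library. The groups lay apart on the first 2 principal components, with 40.4% and 23.7% of the variance, while Col-0 replicate 3 stood apart from the other Col-0 libraries on the third, at -23.9 against 8.44 and 14.8. Mitochondrial transcripts made up 0.178% of the counts in Col-0 replicate 3 and 0.132% in PP2-A5oe replicate 2, against 0.0741% to 0.0878% in the other libraries. Leaving out both of these libraries changed no call of a member. Levels are given as CPM (counts scaled to a common library total, with TMM factors), and differences as log2 fold changes with their standard error from edgeR's quasi-likelihood test over all 9 libraries, with Benjamini-Hochberg adjustment over the 13975 loci. In bulk tissue, fewer cells of a type and less RNA per cell cannot be told apart.

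Of the 6 tested members, 5 rose in PP2-A5oe against Col-0, namely ZAT10, ZAT12, ZAT6, AZF1 and AZF2, where 14.5% of all tested loci were called higher and 10.5% lower. Against Col-0, pp2-a5 had 4 higher, namely ZAT10, ZAT12, ZAT6 and AZF1, where 12.3% of loci were called higher and 8.47% lower. In PP2-A5oe against pp2-a5, 3 were higher, namely ZAT10, ZAT12 and ZAT6, where 7.21% of loci were called higher and 5.45% lower. No tested member was called lower in any of the 3 comparisons by edgeR, DESeq2 or limma-voom, and none had a negative estimate with an unadjusted p under 0.05. With upper-quartile scaling the split of all called loci was 1769 higher and 2069 lower in PP2-A5oe against Col-0, compared with 2027 and 1469 under TMM. For pp2-a5 against Col-0 it was 1536 higher and 1553 lower, compared with 1719 and 1183 under TMM. The members called under TMM were called in the same direction under that scaling. The median log2 fold change of the 6 tested members was 2.20 in PP2-A5oe against Col-0, 0.72 in pp2-a5 against Col-0 and 0.98 in PP2-A5oe against pp2-a5. Over all tested loci the same medians were -0.016, -0.010 and -0.0021. The first 2 comparisons share the 3 Col-0 libraries. AZF1 passed the filter on low counts through PP2-A5oe and pp2-a5 alone, with 0 Col-0 libraries at the cutoff of 1.65 CPM. Its calls against Col-0, and the counts and medians that include it, are therefore descriptions. The 4 members with fewer counts were not tested, so these counts and medians do not stand for the whole family.

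**Figure D1:**
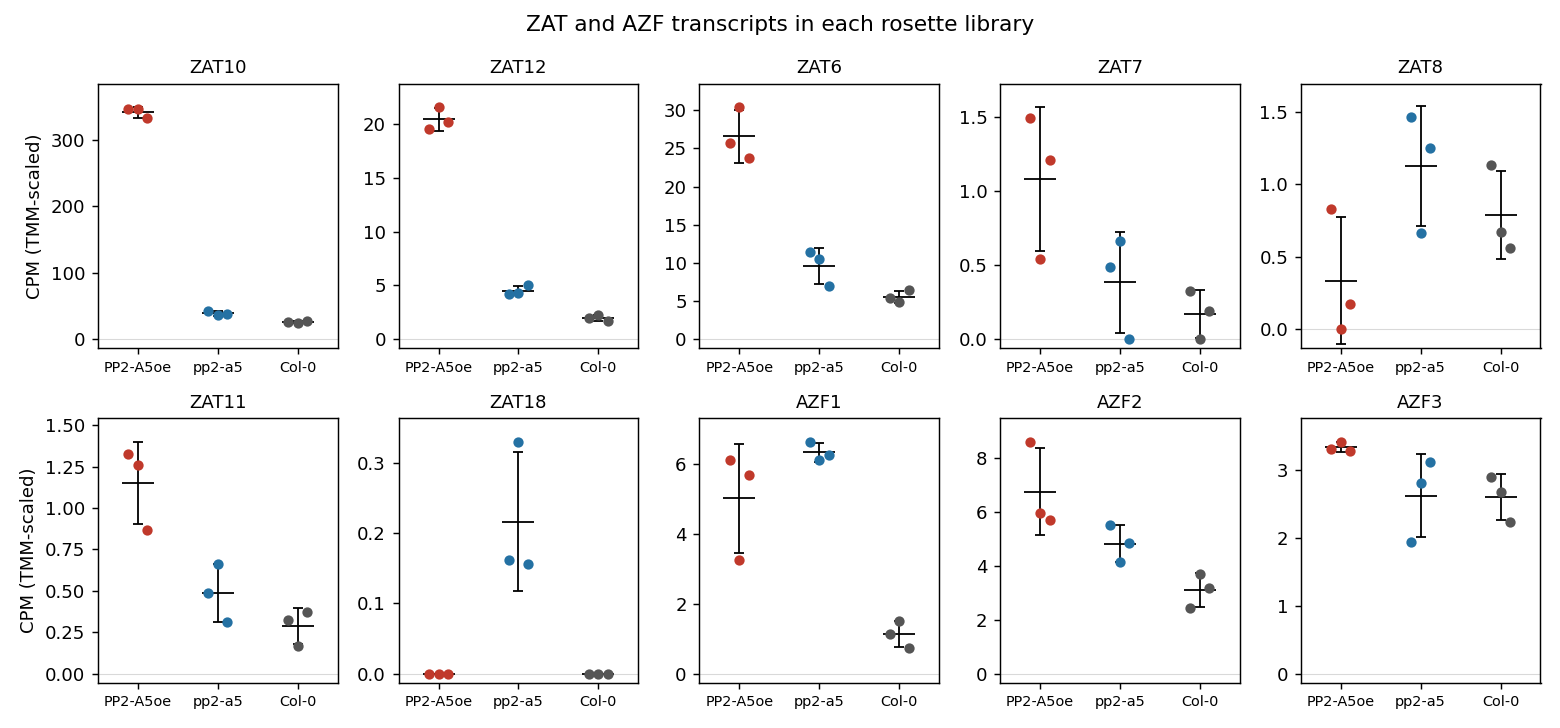
Levels of the 10 members in CPM (y axis, a scale of its own in each panel) in the 3 libraries of PP2-A5oe, pp2-a5 and Col-0 (x axis), with points for libraries and bars for mean ± SD (n = 3). ZAT10 lies between 333.0 and 347.5 CPM in PP2-A5oe, above the highest pp2-a5 library at 42.49 and the highest Col-0 library at 27.08 CPM.

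ZAT10, the salt tolerance zinc finger induced by many stresses and carrying both an EAR motif and a substrate site for MAP kinases, was the most abundant member in every library. It lies on chromosome 1 from 9648021 to 9649323 on the minus strand. It had 346.6, 347.5 and 333.0 CPM in PP2-A5oe, against 42.49, 36.04 and 37.05 CPM in pp2-a5 and 24.83, 23.61 and 27.08 CPM in Col-0. The 3 groups did not overlap, and the replicates of PP2-A5oe lay close together. ZAT10 rose in PP2-A5oe against Col-0 by a log2 fold change of 3.77 ± 0.08, which is 13.6-fold (95% interval 12.2 to 15.2), with an edgeR adjusted p of 6.81e-28. That was the rise of rank 25 among the 13975 tested loci. The rise in pp2-a5 was much smaller, 0.62 ± 0.09 (1.53-fold, adjusted p = 2.12e-06, edgeR). Set directly against pp2-a5, PP2-A5oe was higher by 3.15 ± 0.07 (8.88-fold, adjusted p = 3.02e-26, edgeR).

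ZAT12, a regulator of the response to reactive oxygen, intense light and cold, lies on chromosome 5 from 24102814 to 24103794 on the plus strand. It had 19.56, 21.63 and 20.23 CPM in PP2-A5oe, against 4.217, 4.299 and 5.002 CPM in pp2-a5 and 1.935, 2.177 and 1.681 CPM in Col-0. The order of the groups was the same as for ZAT10, with no overlap. The log2 fold change was 3.39 ± 0.20 in PP2-A5oe against Col-0 (10.4-fold, adjusted p = 7.86e-16, edgeR) and 1.21 ± 0.26 in pp2-a5 against Col-0 (2.31-fold, adjusted p = 0.00075). PP2-A5oe was higher than pp2-a5 by 2.17 ± 0.16 (adjusted p = 9.95e-13, edgeR).

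ZAT6, which acts in phosphate balance, root growth and the response to cold and cadmium, lies on chromosome 5 from 1216058 to 1217362 on the minus strand. It had 25.69, 30.46 and 23.69 CPM in PP2-A5oe, against 11.35, 10.42 and 6.878 CPM in pp2-a5 and 5.321, 4.856 and 6.349 CPM in Col-0. The lowest pp2-a5 library was only just above the highest Col-0 library. ZAT6 rose in PP2-A5oe against Col-0 by 2.27 ± 0.17 (4.83-fold, adjusted p = 6.08e-13, edgeR) and in pp2-a5 against Col-0 by 0.79 ± 0.20 (1.73-fold, adjusted p = 0.00393). Between PP2-A5oe and pp2-a5 the log2 fold change was 1.48 ± 0.15 (adjusted p = 1.68e-09, edgeR).

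AZF1, which is induced by abscisic acid and salt and is known as a repressor of auxin-responsive SAUR genes, had another pattern. The gene lies on chromosome 5 from 26918765 to 26920179 on the minus strand. Its level was 6.132, 3.245 and 5.705 CPM in PP2-A5oe, against 6.650, 6.117 and 6.253 CPM in pp2-a5 and 1.129, 1.507 and 0.747 CPM in Col-0. Both altered lines lay above Col-0 and overlapped each other, with PP2-A5oe replicate 2 the lowest library of the pair. The log2 fold change was 2.13 ± 0.33 in PP2-A5oe against Col-0 (4.38-fold, adjusted p = 4.39e-06, edgeR) and 2.45 ± 0.31 in pp2-a5 against Col-0 (5.48-fold, 95% interval 3.54 to 8.46, adjusted p = 1.61e-07). In pp2-a5 this was the rise of rank 30 among all tested loci. AZF1 passed the filter on low counts only through PP2-A5oe and pp2-a5, the groups where it is high. Its calls against Col-0 and this rank are therefore descriptions. The log2 fold change between PP2-A5oe and pp2-a5 was -0.32 ± 0.22 with a 95% interval of -0.77 to 0.13, and missed the threshold (adjusted p = 0.425, edgeR), while the members ZAT10, ZAT12 and ZAT6 were all higher in PP2-A5oe in that comparison.

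AZF2, a relative of AZF1 that is likewise induced by abscisic acid, lies on chromosome 3 from 6802903 to 6804296 on the minus strand. It had 8.618, 5.948 and 5.705 CPM in PP2-A5oe, against 5.515, 4.133 and 4.846 CPM in pp2-a5 and 2.419, 3.684 and 3.175 CPM in Col-0. The 3 groups did not overlap. It rose in PP2-A5oe against Col-0 by a log2 fold change of 1.13 ± 0.24 (2.19-fold, adjusted p = 0.000492, edgeR). The other comparisons missed the threshold, at 0.65 ± 0.26 for pp2-a5 against Col-0 (95% interval 0.12 to 1.17, adjusted p = 0.0734, edgeR) and 0.49 ± 0.22 for PP2-A5oe against pp2-a5 (95% interval 0.05 to 0.93, adjusted p = 0.162). AZF2 had 2 entries in the table, and the second held at most 3 counts in any library.

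AZF3, the remaining member of the AZF group, was the tested member that passed the threshold in no comparison. It had 3.315, 3.425 and 3.285 CPM in PP2-A5oe, against 1.946, 2.811 and 3.126 CPM in pp2-a5 and 2.902, 2.679 and 2.241 CPM in Col-0. The PP2-A5oe libraries were the highest, and pp2-a5 and Col-0 overlapped. Against Col-0, PP2-A5oe differed by a log2 fold change of 0.35 ± 0.28, with a 95% interval of -0.23 to 0.92 (adjusted p = 0.409, edgeR). In pp2-a5 against Col-0 it was 0.0053 ± 0.29 with a 95% interval of -0.59 to 0.60 (adjusted p = 0.993, edgeR), an estimate whose sign turned under 4 of the other settings and 3 of the fits that left out 1 library. Between PP2-A5oe and pp2-a5 it was 0.34 ± 0.28 (95% interval -0.22 to 0.91, adjusted p = 0.527, edgeR). AZF3 lies on chromosome 5 from 17330945 to 17331646 on the minus strand, and its 3′ end overlaps QWRF9 (AT5G43160) on the plus strand. The sources used here do not state whether counting used strand, so its counts are uncertain. It was the only member that overlapped another annotated gene.

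**Figure D2:**
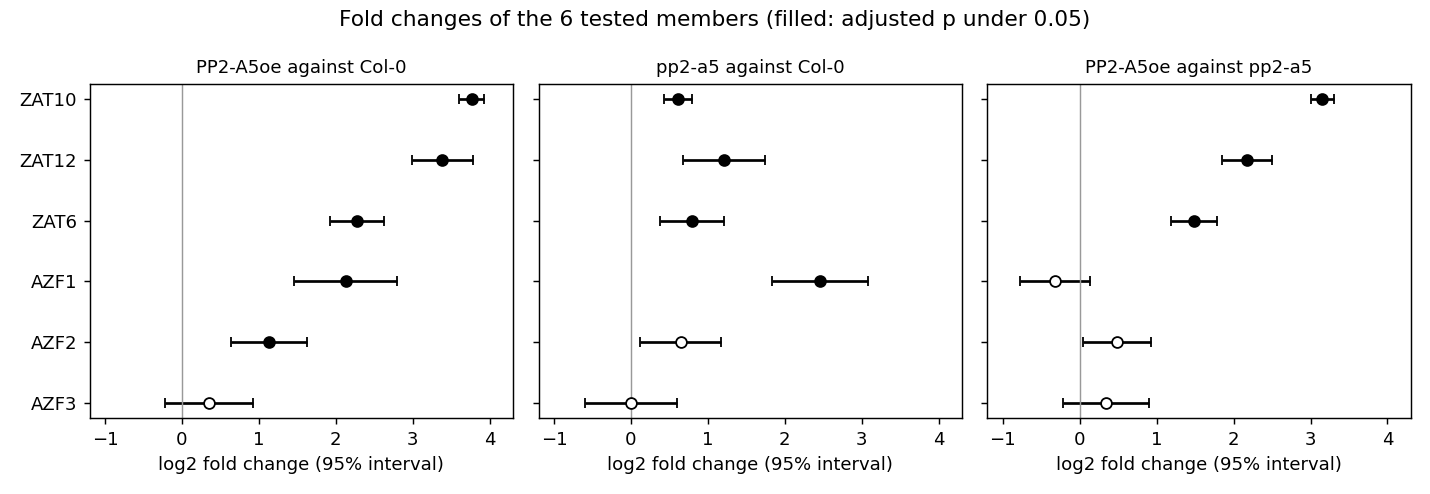
Log2 fold changes (x axis) of the 6 tested members (y axis) in the 3 comparisons, with points for estimates, bars for 95% intervals and filled points for an edgeR adjusted p under 0.05. ZAT10, ZAT12 and ZAT6 were higher in PP2-A5oe than in pp2-a5, while the AZF1 estimates against Col-0 were 2.13 in PP2-A5oe and 2.45 in pp2-a5.

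ZAT7, ZAT8, ZAT11 and ZAT18 stayed below the filter on low counts in all 9 libraries and were not tested in the main comparison. ZAT7, known for its part in salt tolerance, had 9, 3 and 7 counts in PP2-A5oe, 3, 4 and 0 in pp2-a5, and 2, 0 and 1 in Col-0. PP2-A5oe lay above Col-0 in all libraries and overlapped pp2-a5, and the ratio of their summed counts, 19 against 3, was 6.39 (95% counting interval 1.88 to 33.7, exact permutation p = 0.1, two-sided). ZAT11, reported in nickel tolerance and in cell death driven by reactive oxygen, had 8, 7 and 5 counts in PP2-A5oe, 3, 4 and 2 in pp2-a5, and 2, 1 and 2 in Col-0. All PP2-A5oe libraries were above those of both other groups, and the ratio to Col-0, 20 against 5 counts, was 4.04 (1.47 to 13.8, exact permutation p = 0.1). With 3 against 3 libraries, 0.1 is the smallest p an exact two-sided permutation test can give. Without the filter, in a fit over 22155 loci, ZAT7 had an edgeR adjusted p of 0.0116 (log2 fold change 2.52 ± 0.79) and ZAT11 one of 0.0362 (1.92 ± 0.69) in PP2-A5oe against Col-0. The 5 members called with the filter had smaller edgeR adjusted p without it, such as 2.05e-53 against 7.86e-16 for ZAT12. AZF3 had a larger one, 0.579 against 0.409. Adjusted p thus depended on the filter, so the calls of ZAT7 and ZAT11 are uncertain.

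ZAT8 had its lowest counts in PP2-A5oe. It had 5, 0 and 1 counts in PP2-A5oe, 9, 4 and 8 in pp2-a5, and 7, 4 and 3 in Col-0, so PP2-A5oe held the lowest libraries but overlapped both other groups. The ratio of PP2-A5oe to Col-0, 6 against 14 counts, was 0.433 (95% counting interval 0.136 to 1.2, exact permutation p = 0.3), and that of PP2-A5oe to pp2-a5, 6 against 21 counts, was 0.306 (0.101 to 0.784, exact permutation p = 0.2). The ratios of pp2-a5 to Col-0 were 1.41 for ZAT8 (0.685 to 3.0, exact permutation p = 0.3), 2.20 for ZAT7 (0.502 to 13.2, exact permutation p = 0.5) and 1.70 for ZAT11 (0.51 to 6.44, exact permutation p = 0.3), and each counting interval included a ratio of 1. ZAT18, described in drought tolerance, had 0 counts in every PP2-A5oe and Col-0 library and 1, 2 and 1 counts in pp2-a5, which is too few for a difference to be detectable. The counts of 0 allow a level of up to 0.173 CPM in PP2-A5oe and 0.171 CPM in Col-0, taking 3 counts over a group. These intervals and limits cover counting error only.

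ZAT8 and ZAT7 are neighbours on chromosome 3, at 16922514 to 16923299 and 16925881 to 16926883 on the minus strand, with 2581 bases between them. A further relative, AT3G46070, ends 1556 bases before ZAT8. The annotated genes of ZAT7 and ZAT8, from start to end, shared a run of at most 44 bases. No stretch of 50 bases from the exons of any member was found elsewhere in the nuclear genome. The neighbours differed in the order of the groups, with the summed counts of ZAT7 highest in PP2-A5oe and those of ZAT8 lowest there. Both rest on at most 9 counts in any library, ZAT8 in PP2-A5oe overlapped both other groups, and the difference in order was not tested. ZAT11 lies on chromosome 2 from 15706285 to 15707224 and ZAT18 on chromosome 3 from 19875375 to 19876177, both on the plus strand.

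To order the members among themselves, CPM was divided by the length of the annotated exons. In PP2-A5oe, ZAT10 stood at 262.7 CPM per kb, far above ZAT12 at 20.9 ± 1.08 and ZAT6 at 20.4 ± 2.67, a pair that did not differ beyond its spread. AZF2 at 4.85, AZF3 at 4.76 and AZF1 at 3.55 CPM per kb followed, with the spread of AZF2 overlapping those of both others, then ZAT11 at 1.22, ZAT7 at 1.08 and ZAT8 at 0.425. In pp2-a5 the order was ZAT10 at 29.6 CPM per kb, ZAT6 at 7.32 ± 1.81, ZAT12 at 4.59, AZF1 at 4.48, AZF3 at 3.74, AZF2 at 3.47 and ZAT8 at 1.43. There each neighbour in the order from ZAT12 to AZF2 lay within its spread. Col-0 had ZAT10 at 19.3 CPM per kb, ZAT6 at 4.22, AZF3 at 3.71, AZF2 at 2.22, ZAT12 at 1.97, ZAT8 at 1.0 and AZF1 at 0.797, with ZAT6 and AZF3, AZF2 and ZAT12, and ZAT8 and AZF1 each within their spread. ZAT12 thus stood above the AZF genes in PP2-A5oe and below AZF3 in Col-0.

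Summed over the 10 members, the family stood at 320.0 ± 9.01 CPM per kb in PP2-A5oe, 55.8 ± 3.77 in pp2-a5 and 33.7 ± 1.03 in Col-0 (SD, n = 3 each). ZAT10 supplied 81.9%, 82.0% and 82.6% of that sum in PP2-A5oe, 54.3%, 51.3% and 53.4% in pp2-a5, and 56.3%, 55.6% and 60.0% in Col-0. The share of ZAT10 was thus higher in every PP2-A5oe library than in any other, and lower in every pp2-a5 library than in any Col-0 library. The exact two-sided permutation p was 0.1 for each pair of groups, the smallest that 3 against 3 libraries can give.

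**Figure D3:**
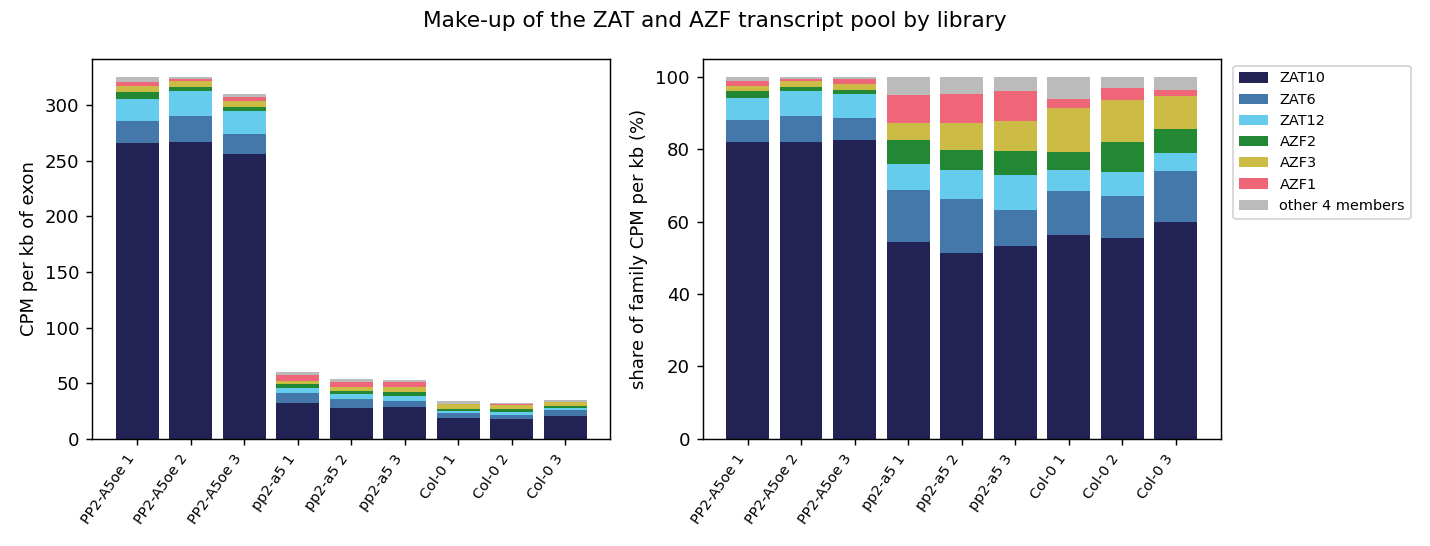
Transcript level of the family per library in CPM per kb of exon (left) and the share of each member in percent (right), with 1 bar per library of PP2-A5oe, pp2-a5 and Col-0 and colours for members. The sum averages 320.0 CPM per kb in PP2-A5oe, 55.8 in pp2-a5 and 33.7 in Col-0, and ZAT10 fills 82.2% of it in PP2-A5oe, 53.0% in pp2-a5 and 57.3% in Col-0.

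For each tested member, the 2 other tested loci with the most similar profile over the 9 libraries were found by the root mean square difference of log2 CPM centred on the Col-0 mean. Nearest to ZAT10 were AT1G07135 at 0.208 and GATL10 at 0.231, a galacturonosyltransferase-like gene. Nearest to ZAT12 were AT1G58420 at 0.256 and PBP1 at 0.266, which encodes a calcium-binding protein. ZAT6 had NHL3 at 0.182 and AT3G56880 at 0.232. All of these had large positive log2 fold changes in PP2-A5oe against Col-0, from 2.18 for AT3G56880 to 4.04 for GATL10. Loci were chosen by likeness over the same 9 libraries, so fold changes close to those of each member follow from the choice. AZF1 was nearest to ABCG27 at 0.304, an ABC transporter gene, and AT4G03450 at 0.351, which had log2 fold changes of 2.20 and 2.66 in pp2-a5 against Col-0. AZF2 had CYP96A4 at 0.172 and AT3G52520 at 0.184, and AZF3 had AT4G39960 at 0.105 and AT5G06350 at 0.106. No member was among the nearest loci of another.

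Other genes around the family were taken from lists of loci. Of 20 further C2H2 relatives, 16 were in the table and 6 were tested. In PP2-A5oe against Col-0, 1 was called higher and 1 lower, with a list median of -0.29, where 14.5% of all tested loci were called higher and 10.5% lower. The one called higher, AT2G28200, changed by 0.25 ± 0.07 (adjusted p = 0.00971, edgeR). The one called lower, AT1G49900, changed by -2.08 ± 0.52 (adjusted p = 0.00275, edgeR), on 4, 1 and 2 counts in PP2-A5oe against 11, 10 and 10 in Col-0. AT1G49900 passed the filter on low counts through Col-0, the group where it is high, so its call and its place in the median are no support for a difference. Against Col-0, pp2-a5 had 0 of 6 called (median -0.06), none with an unadjusted p under 0.05 and none by DESeq2 or limma-voom. The most abundant of them, AT2G28200 and AT5G03510, had log2 fold changes of 0.05 and -0.17 there. In PP2-A5oe against pp2-a5, AT1G49900 was again lower (adjusted p = 0.0485, edgeR), on 11, 6 and 7 counts in pp2-a5, a call that DESeq2 did not make.

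For the co-repressors and deacetylases that EAR motifs recruit, no tested gene was called. Of 8 such loci, 3 were in the table and 2 were tested, TPR2, a member of the TOPLESS family, and the histone deacetylase HDA6. Their log2 fold changes were 0.12 and 0.11 in PP2-A5oe against Col-0 and 0.10 and 0.09 in pp2-a5 against Col-0 (edgeR adjusted p of 0.178, 0.368, 0.286 and 0.541 in that order). In all 3 comparisons 0 of 2 were called, with none at an unadjusted p under 0.05 and none by DESeq2 or limma-voom. TPL (TOPLESS) was in the table but not tested, with summed counts of 20 in PP2-A5oe, 24 in pp2-a5 and 15 in Col-0. The result covers TPR2 and HDA6 only, and the loci that were not in the table were not analysed here.

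Upstream of the family, MAP kinase cascades are known to phosphorylate ZAT10 and ZAT6. Of 7 kinase loci, all in the table, 6 were tested, and 3 rose in each line against Col-0, with list medians of 0.37 in PP2-A5oe and 0.35 in pp2-a5, where 14.5% and 12.3% of all tested loci were called higher. MPK3, the MAP kinase of early immunity and stress, rose by 0.92 ± 0.07 in PP2-A5oe (adjusted p = 4.51e-13, edgeR) and by 0.89 ± 0.07 in pp2-a5 (adjusted p = 2.09e-12). Its activators MKK4 and MKK5 rose by 0.91 and 0.51 in PP2-A5oe (adjusted p = 8.48e-09 and 6.67e-06, edgeR) and by 0.68 and 0.45 in pp2-a5 (adjusted p = 4.11e-06 and 5.19e-05). Between PP2-A5oe and pp2-a5, 0 of 6 were called by edgeR, DESeq2 or limma-voom, with 1 at an unadjusted p under 0.05, and MPK3 differed by 0.03 (adjusted p = 0.85, edgeR).

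Of 11 genes that earlier work placed downstream of ZAT10, ZAT12 or ZAT6, 9 were in the table and 7 were tested. In PP2-A5oe against Col-0, 6 of 7 rose, with a median of 0.98, and in pp2-a5 against Col-0, 3 of 7 rose, with a median of 0.80 (2 of 7 by limma-voom). Of all tested loci, 14.5% were called higher in PP2-A5oe and 12.3% in pp2-a5. CBF1 and DREB1A passed the filter on low counts through PP2-A5oe alone, the group where they are high. Their calls, and the counts and medians that include them, are therefore descriptions. No list member was called lower against Col-0 by edgeR, DESeq2 or limma-voom. In PP2-A5oe the CBF genes, the cold regulators that ZAT12 is reported to repress, had the largest log2 fold changes of the list. CBF2 averaged 50.1 ± 2.03 CPM in PP2-A5oe, against 2.70 ± 0.825 CPM in Col-0 (SD, n = 3 each), a log2 fold change of 4.21 ± 0.16 (adjusted p = 1.19e-20, edgeR). CBF1 had 162 counts in PP2-A5oe and 3 in Col-0, a ratio of 54.5 (95% counting interval 18.3 to 267), and DREB1A (also called CBF3) rose by 3.86 ± 0.42 (adjusted p = 5.13e-09, edgeR). The other 3 called in PP2-A5oe were LOX3 at 0.98, LTI78 (also called RD29A) at 0.61 and CAD1 at 0.56. In pp2-a5 no CBF gene was called. CAD1, the phytochelatin synthase gene reported downstream of ZAT6, rose by 0.84 ± 0.08 (adjusted p = 8.33e-10, edgeR), LOX3, a lipoxygenase of jasmonate synthesis, by 0.80 (adjusted p = 1.85e-06) and ERD1, a chloroplast protease regulator, by 0.48 (adjusted p = 0.0374).

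Set directly against pp2-a5, PP2-A5oe had 4 of these 7 genes higher and 1 lower, with a median of 0.38, where 7.21% of all tested loci were called higher and 5.45% lower, and DESeq2 called 4 of the 7. CBF2 was higher by 3.61 (adjusted p = 8.18e-20, edgeR) and DREB1A by 2.87 (adjusted p = 1.29e-07). CBF1 had 162 counts in PP2-A5oe against 8 in pp2-a5, a ratio of 21.7 (95% counting interval 10.8 to 51.1). Here too CBF1 and DREB1A were tested only through PP2-A5oe, the group where they are high. Their calls, and the count and median that include them, are therefore descriptions. LTI78 was higher by 0.38 (adjusted p = 0.0139, edgeR). CAD1 was the one lower, at -0.28 (adjusted p = 0.0135, edgeR).

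SAUR genes, the auxin-induced growth genes that AZF1 and AZF2 are reported to repress, fell in part in both lines. All 17 listed SAUR loci were in the table and 16 were tested. In PP2-A5oe against Col-0, 10 fell and 0 rose, with a median of -0.47 (8 called by DESeq2, 9 by limma-voom), where 10.5% of all tested loci were called lower. In pp2-a5 against Col-0, 6 fell and 0 rose, with a median of -0.35 (4 called by DESeq2), where 8.47% of all tested loci were called lower. The smallest adjusted p in PP2-A5oe belonged to AT4G38860 at -0.54 ± 0.08 (adjusted p = 4.67e-06, edgeR), AT1G29450 at -0.82 ± 0.13 (5.8e-06) and AT4G38840 at -0.54 ± 0.09 (6.51e-06). In pp2-a5 they belonged to AT4G38860 at -0.49 (2.46e-05), AT1G29450 at -0.61 (0.000326) and AT1G29430 at -0.51 (0.00051). Between PP2-A5oe and pp2-a5, 2 of 16 SAUR genes were lower in PP2-A5oe, where 5.45% of all tested loci were called lower. These were AT4G38840 at -0.56 (adjusted p = 5.43e-06, edgeR) and AT1G29500 at -0.46 (0.0263), and DESeq2 called 1 of the 16. Whether SAUR levels follow those of AZF1 or AZF2 was not tested. The SAUR genes sit in clusters of near-identical copies, so their counts may be shared among neighbours and are uncertain, and their calls are not independent.

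**Figure D4:**
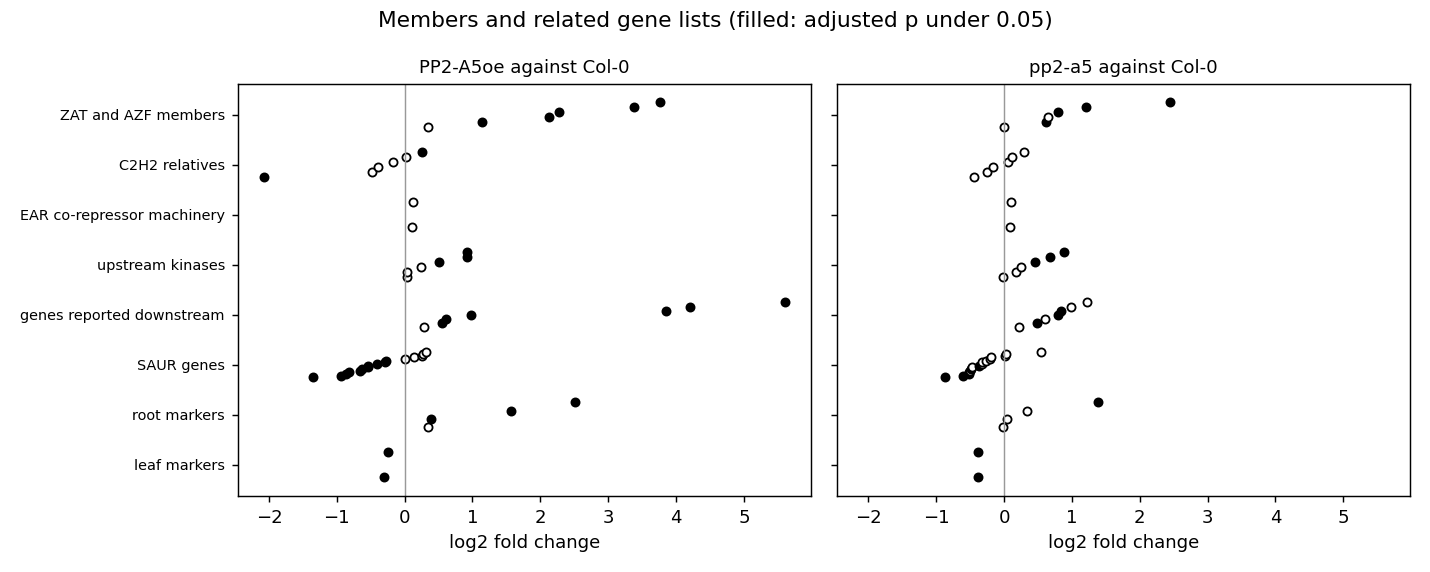
Log2 fold changes (x axis) of tested genes in each list (y axis), with 1 point per gene, filled for an edgeR adjusted p under 0.05, for PP2-A5oe against Col-0 (left) and pp2-a5 against Col-0 (right). Of the ZAT and AZF members 5 of 6 were called higher in PP2-A5oe and 4 of 6 in pp2-a5, while 10 and 6 of 16 SAUR genes were called lower.

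Markers of root and leaf are given beside these results. They were examined because the labels give the tissue as rosette while the extraction protocol names seedlings. Of 7 root markers, 6 were in the table and 4 were tested, and 3 rose in PP2-A5oe against Col-0 (median 0.98). These were LRX1 by 1.57 ± 0.24 (adjusted p = 2.68e-06, edgeR), AT5G17820 by 2.52 ± 0.39 (4.7e-06) and PYK10 by 0.39 (8.11e-05), where 14.5% of all tested loci were called higher. AT5G17820 had 21, 24 and 19 counts in PP2-A5oe, against 12, 8 and 11 in pp2-a5 and 3, 3 and 5 in Col-0, and PP2-A5oe was the group through which it passed the filter on low counts, so its calls and its place in the medians are descriptions. In pp2-a5 against Col-0, 1 rose (median 0.20), AT5G17820 by 1.38 (adjusted p = 0.0284, edgeR), a call that DESeq2 did not make, where 12.3% of all tested loci were called higher. The summed level of the 6 loci was 332.9 to 349.8 CPM in PP2-A5oe, 247.0 to 271.7 in pp2-a5 and 228.4 to 294.2 in Col-0. Of the root hair genes, which had too few counts to be tested, SHV2 had 8, 7 and 0 counts in PP2-A5oe, against 9, 5 and 3 in pp2-a5 and 1, 0 and 1 in Col-0. EXPA7 had 4, 9 and 0 counts in PP2-A5oe, against 2, 2 and 1 in pp2-a5 and 0, 0 and 1 in Col-0. In PP2-A5oe against pp2-a5, 3 of 4 root markers were higher (median 0.77, 2 called by DESeq2), where 7.21% of all tested loci were called higher.

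Of 5 leaf markers, the light-harvesting genes CAB1 and CAB2 were in the table and tested, and both were abundant in every library. Their summed level was 19940 to 22680 CPM in PP2-A5oe, 19750 to 20450 in pp2-a5 and 25000 to 28490 in Col-0. CAB1 and CAB2 fell by 0.31 and 0.24 on the log2 scale in PP2-A5oe against Col-0 (edgeR adjusted p = 8.14e-05 and 0.00256) and by 0.39 and 0.38 in pp2-a5 against Col-0 (2.48e-06 and 8.23e-06), where 10.5% and 8.47% of all tested loci were called lower. Between PP2-A5oe and pp2-a5, 0 of 2 were called by edgeR, DESeq2 or limma-voom, with 1 at an unadjusted p under 0.05. Whether reads of CAB1 and CAB2 can be told apart was not checked, so their calls may not be independent. The part of root or leaf content in the results for the members was not tested.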

How the data were processed

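Polyadenylated RNA from rosettes was sequenced in 9 libraries, 3 per genotype (PP2-A5oe, pp2-a5, Col-0). The authors deposited raw counts per locus, made against TAIR10 per the submitters' processing notes. The sources used here give neither aligner nor counting program, nor whether strand was used. The table held 22449 entries for 22155 loci, and the counts of 294 loci with 2 entries were summed. Names and sequences came from TAIR10.1 (RefSeq), which matched all 10 members and 21952 loci in all. Totals were 5408847 to 6196722 counts.

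Low counts were removed with filterByExpr (minimum count 10, minimum total 15), which left 13975 loci with 99.76% of the counts. Libraries were scaled by TMM and fitted in 1 robust quasi-likelihood model with a mean per genotype and 6 residual degrees of freedom (edgeR 4.0.16, limma 3.58.1, R 4.3.3). The biological coefficient of variation was 6.89%. A locus counted as called where its p, adjusted by Benjamini and Hochberg over all tested loci, was under 0.05. Intervals are at 95%, and counting intervals are exact binomial. Likeness used a prior count of 2. Tables, sequences and plots used Python 3.11.15, pandas 2.3.3, numpy 2.4.6, Biopython 1.88 and matplotlib 3.10.9. The fit was tested on simulated data. Alternatives were RLE and upper-quartile scaling, no filter, at least 10 CPM in at least 3 libraries, DESeq2 1.42.0, limma-voom, fits of 1 pair of groups alone, a block for the replicate number, entries kept separate, leaving out each library, and, chosen after seeing the data, leaving out both libraries with the highest mitochondrial share.

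The text names all 10 members, from each list up to 3 called genes with the smallest adjusted p (or, with none called, at most 2 with the highest level), and the 2 loci most like each tested member. Members and lists were chosen with earlier results of these data known. QWRF9, AT3G46070, LTI78, TPL, SHV2 and EXPA7 were named after their values or positions were seen. How the replicates were grown is not stated, so p-values reflect the spread among these libraries, which may be technical.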

Additional observations from a re-analysis of the deposited data

How the results depend on the processing

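Of 333 values of single members under other settings, 326 kept their direction and their side of the threshold and 7 turned sign, all of them AZF3 in pp2-a5 against Col-0, which was not called. That log2 fold change was -0.030 with upper-quartile scaling, -0.0068 with no filter, -0.017 with limma-voom and -0.085 without both libraries with the highest mitochondrial share, and it ran from -0.14 to 0.18 when single libraries were left out. The cause was not tested. In PP2-A5oe against Col-0, 3 members were called with at least 10 CPM in at least 3 libraries, since only ZAT10, ZAT12 and ZAT6 were then tested, and 7 were called with no filter. No pairing of the libraries by replicate number was detected. Same-numbered libraries correlated at -0.18 to 0.062, and 2 of 9 correlated best with their own number. With 3 libraries per group, this cannot show whether same-numbered libraries were grown or handled together. With the replicate number as a block, 3185 loci were called in PP2-A5oe and 2575 in pp2-a5 against Col-0, and 1571 between the lines, and the calls of the members did not change. Depth limits ZAT7, ZAT8, ZAT11 and ZAT18, which held at most 9 counts in any library.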
